A study of Rattus norvegicus with 29 samples.

Results

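The open chromatin around Mbp, the gene of myelin basic protein, was described in 4 regions of the rat brain. All open chromatin regions (OCRs, stretches of the genome called accessible in at least 1 library) that overlap chr18:79230000-79540000 of the rat build rn6 were taken, a window that holds Mbp near 79.33 to 79.44 Mb. The window was chosen with earlier results of these data known, but within it position alone chose the OCRs, and 43 of 98237 OCRs lay in it. They are called the OCRs in the window and are numbered from 1 to 43 by position. The assay was ATAC-seq, which uses a transposase to place sequencing adapters wherever chromatin is open. The animals were adult male Sprague-Dawley rats that received methamphetamine (METH) at 10 mg/kg, or 1 mL/kg of saline, in 4 intraperitoneal injections given 2 h apart. On the day after the injections 4 regions were dissected: the nucleus accumbens (NAc), the subventricular zone (SVZ) and, from the hippocampus, Ammon's horn (CA) and the dentate gyrus (DG). There were 29 libraries from 8 rats, namely 4 per treatment for NAc, DG and CA, and for SVZ 3 with saline and 2 with METH. Each library came from frozen bulk tissue of 1 hemisphere, so that oligodendrocytes, other glia, neurons and vessel cells were read together.

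Myelin basic protein lies on the inner face of the myelin membrane and holds its layers together. In the central nervous system it is made by oligodendrocytes, and Mbp is a common marker of the mature, myelinating state of these cells. A longer transcription unit of the same gene, golli, starts outside the myelin unit and is also used by other cells, so not every open region near Mbp needs to belong to an oligodendrocyte. An rn6 gene annotation was not used here, so no OCR was assigned to a promoter, exon or intron, and OCRs are called before, within or after the interval of 79.33 to 79.44 Mb in the order of the coordinates. Open regions of other cell type marker genes were not analysed here. The sum over the window is therefore a measure of the Mbp locus, and how closely it follows the number of oligodendrocytes in a sample was not tested.

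The libraries held between 7.55 and 19.4 M counts in OCRs (1 M is 1000000), of which between 2781 and 12586 lay in the window. Counts per M (CPM) below use library sizes normalized by the upper quartile. The names of the peaks carry the animal and 1 of 2 forms of a library tag, which differ only in the case of a letter. These forms are called batch 1 and batch 2 here, but the names do not say what they stand for. Both treatments of NAc, DG and CA occur in both batches. The top-decile share, the percentage of OCR counts found in the most open 10% of OCRs, ran from 45.4 to 62.6% and serves as a measure of how strongly a library is concentrated in its most open regions. By these names the libraries of a group came from different animals, and p-values measure the spread between these libraries.

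The 43 OCRs were between 159 and 1826 bp wide, with a median of 549 bp, and together covered 25246 bp of the window of 310 kb. Within the interval of Mbp lay 30 OCRs, which carried 87.2% of the summed CPM. The 5 OCRs before the interval carried 8.21% and the 8 OCRs after it carried 4.62%. In 9 OCRs a peak was called in all 29 libraries, and in 11 OCRs a peak was called in fewer than 5 libraries.

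The signal was uneven among the OCRs. OCR 24 (chr18:79405854-79406857) was the highest, with a mean of 60.3 CPM over the 29 libraries, above 97.3% of all OCRs. OCR 16 (chr18:79380538-79381606) and OCR 22 (chr18:79401254-79402047) followed with 42.4 CPM each. These 3 OCRs held 31.9% of the window sum and each had a peak in every library. The highest 6, all within the interval, held 53.5%. The median OCR in the window was ordinary by comparison, at 4.52 CPM against 4.28 CPM for all OCRs.

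**Figure D1:**
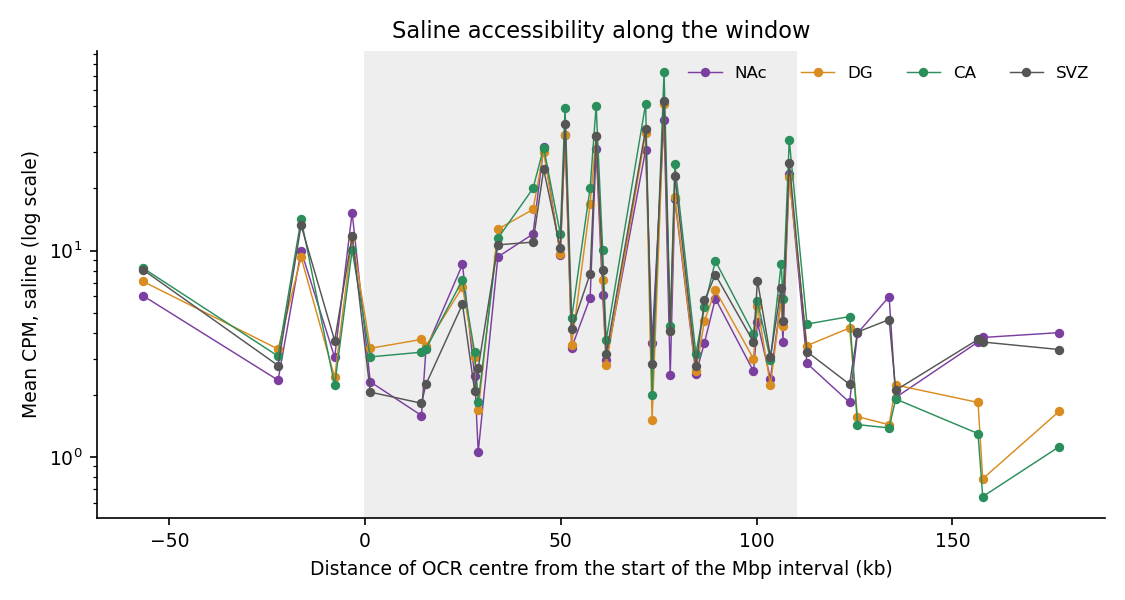
Mean CPM of each of the 43 OCRs in saline libraries (vertical axis, log scale) against the distance of its centre from the start of the Mbp interval in kb (horizontal axis), with 1 line per region and the interval of 110 kb shaded. The highest OCRs lie within the interval in all 4 regions, and after the interval the NAc and SVZ lines part from the DG and CA lines.

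Summed over the window, accessibility did not differ between the 4 regions in saline rats beyond the spread between libraries. The NAc libraries read 467, 425, 316 and 328 CPM for replicates 1 to 4. The DG libraries read 271, 596, 399 and 385 CPM, and the CA libraries read 695, 826, 315 and 267 CPM. The SVZ libraries read 338, 514 and 436 CPM. CA thus held both the highest and the lowest saline value, and the ranges of all 4 regions overlapped.

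The mean was lowest in NAc, at 384 ± 74.0 CPM (SD, n = 4), and highest in CA, at 526 ± 277 CPM (SD, n = 4). Between them lay DG with 413 ± 135 CPM (SD, n = 4) and SVZ with 429 ± 88.4 CPM (SD, n = 3). In this order of levels, NAc, DG, SVZ and CA, no neighbours differed beyond their spread. The widest gap, NAc minus CA, was -141 CPM with an SE of 143 (exact permutation test, two-sided, p = 0.429). Over the 6 pairs of regions the exact p ran from 0.429 to 0.886 and was at least 0.857 after Benjamini-Hochberg adjustment. The smallest p that such a test can give with 4 against 4 libraries, or 4 against 3, was 0.0286. Regions share animals, and the differences paired by animal are given with the other alternatives.

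The CA libraries split by batch. Both saline CA libraries of batch 1 lay between 695 and 826 CPM, and both of batch 2 lay between 267 and 315 CPM. Within batch 1, NAc minus CA was -314 CPM and DG minus CA was -327 CPM, while within batch 2 they were 31.1 and 101 CPM. The remaining pairs also took opposite signs in the 2 batches, with 12.9 and -70.0 CPM for NAc minus DG, 108 and -153 CPM for NAc minus SVZ, -95.5 and 83.2 CPM for SVZ minus DG, and -422 and 184 CPM for SVZ minus CA. Batch 1 held a single SVZ library. No order of the regions by the Mbp window therefore held in both batches.

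Region by region and OCR by OCR, the saline libraries were then compared with edgeR's quasi-likelihood test, each region against the mean of the other 3, over all 98237 OCRs. An OCR was called when its log2 fold change was above 1 in either direction with a Benjamini-Hochberg FDR under 0.01. In NAc, 1 of 43 OCRs in the window was called higher, where 4.66% of all OCRs were called higher, and 1 was called lower, where 0.263% of all OCRs were. In CA, 1 was called higher, against 0.0814% of all OCRs, and none was called lower, against 0.708%. No OCR in the window was called in DG, against 0.155% higher and 0.188% lower among all OCRs, or in SVZ, against 0.399% and 0.00611%. At an unadjusted p under 0.05 11 of 43 OCRs passed in NAc where 22.3% of all OCRs did, 8 in CA where 19.8% did, 6 in DG where 17.8% did, and 5 in SVZ where 15.4% did. These shares stood near those of all OCRs. Each comparison uses the other regions as its reference, so the 4 comparisons share libraries.

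OCR 18 (chr18:79387050-79387898), within the interval, was less open in NAc and more open in CA. OCR 18 and, below, OCR 39 and further OCRs named for their test results or their r fell outside the rule for named OCRs. They were chosen after their values were seen. The saline NAc libraries read 6.62, 6.82, 5.11 and 5.09 CPM at OCR 18 and the CA libraries read 17.6, 17.9, 21.3 and 23.6 CPM. The DG libraries read 11.2, 12.7, 21.6 and 21.5 CPM and the SVZ libraries 5.38, 9.64 and 8.15 CPM. The DG values reached up into the CA range, and the SVZ values overlapped those of NAc. The log2 fold change was -1.22 in NAc (SE 0.24, edgeR FDR 0.00252) and 1.13 in CA (SE 0.21, edgeR FDR 0.00761), while 0.79 in DG missed the fold threshold (edgeR FDR 0.0416). A peak was called over OCR 18 in 5 of 8 CA and 4 of 8 DG libraries and in 0 of 8 NAc and 0 of 5 SVZ libraries. OCR 18 did not move with the rest of the window across libraries, with a correlation of 0.16 with the summed signal of the other 42 OCRs.

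OCR 39 (chr18:79463522-79464165) lies after the interval and was more open in NAc. The saline NAc libraries read 7.69, 4.48, 5.52 and 6.24 CPM, and the SVZ libraries 2.85, 3.13 and 7.92 CPM. The DG libraries lay between 1.10 and 1.65 CPM and the CA libraries between 0.83 and 1.77 CPM. NAc and SVZ were thus the higher regions, at an OCR that was chosen after its values were seen. The log2 fold change of NAc was 1.51 (SE 0.28, edgeR FDR 0.00177). A peak was called over it in 7 of 8 NAc libraries, in 1 of 5 SVZ libraries and in 0 of 16 libraries of the hippocampus.

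The METH libraries, which come from other rats, gave the same directions for both OCRs. In METH libraries OCR 18 read 6.04, 4.25, 5.08 and 2.95 CPM in NAc and 17.0, 14.5, 23.8 and 20.7 CPM in CA, with a log2 fold change of -1.47 in NAc (edgeR FDR 0.00369) and 1.27 in CA (edgeR FDR 0.00567). OCR 39 read 4.33, 8.03, 1.94 and 7.15 CPM in NAc, with a log2 fold change of 1.79 (edgeR FDR 0.00651). Among all OCRs in these libraries, 0.383% were called lower and 2.18% higher in NAc, and 0.306% lower and 1.19% higher in CA. No OCR in the window was called in DG or SVZ, where 0% and 1.05% of all OCRs were called higher and 0.00102% and 0.00407% lower. In saline the calls rested on few libraries. The NAc call of OCR 39 was lost without NAc saline replicate 1 (FDR 0.0128), that of OCR 18 without replicate 3 (FDR 0.0183), and both without replicate 4 (FDR 0.0128 and 0.0212). The CA call of OCR 18 was lost without any 1 of 11 of the 15 libraries, with an FDR of at most 0.0280, and it held without CA replicate 2, DG replicate 2, DG replicate 4 or SVZ replicate 2. It was also lost with TMM library sizes, with which 0.00407% of all OCRs were called higher in CA. DESeq2 called OCR 18 and OCR 39 in NAc and OCR 18 in CA as well, and in addition OCR 42 higher in NAc and lower in CA and OCR 39 lower in DG. It called more of all OCRs than edgeR did, with 6.2% higher and 1.68% lower in NAc, 1.35% higher and 3.37% lower in CA, and 3% lower in DG.

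In each of the 4 regions the largest log2 fold change among the 43 OCRs was that of OCR 42 (chr18:79487455-79488047), also after the interval. The saline libraries read 4.87, 2.14, 3.54 and 4.62 CPM in NAc and 1.79, 2.17 and 6.85 CPM in SVZ. They lay between 0.55 and 0.93 CPM in DG and between 0.33 and 1.10 CPM in CA. Again NAc and SVZ read higher than DG and CA, at a level that only 4.7% of all OCRs fell below. OCR 42 was named for its fold changes, so the distance between the regions is no separate result. The log2 fold change was 1.62 in NAc (edgeR FDR 0.0114), -1.39 in DG (FDR 0.0987), -1.74 in CA (FDR 0.0381) and 1.51 in SVZ (FDR 0.0703), and none of these was called.

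OCR 39 and OCR 42 were not alone in this. At an unadjusted p under 0.05, 5 of the 8 OCRs after the interval were higher and 1 was lower in NAc, where 13% of all OCRs were higher and 9.24% lower. In SVZ 4 of the 8 were higher, against 9.74% of all OCRs. In CA 5 were lower and 1 was higher, against 11.3% and 8.51%, and in DG 3 were lower, against 7.95%. Their sum was 28.0 ± 5.31 CPM in NAc (SD, n = 4) and 26.9 ± 9.41 CPM in SVZ (SD, n = 3), beside 17.2 ± 2.21 CPM in DG (SD, n = 4) and 17.0 ± 2.62 CPM in CA (SD, n = 4). Within the interval, in contrast, 29 of 30 OCRs had a log2 fold change above 0 in CA and 26 of 30 had one below 0 in NAc, but 2 and 3 of them, respectively, passed an unadjusted p under 0.05. Over the 43 OCRs the median log2 fold change was 0.29 for CA and -0.28 for NAc, where that of all OCRs was 0.01 and -0.07, and it was -0.10 for DG and 0.03 for SVZ, where that of all OCRs was 0.05 and -0.02. The CA value did not hold in all settings. Without CA saline replicate 2 it was 0.03, with 23 of 43 OCRs above 0. In METH libraries it was -0.19, with 12 of 43 above 0, while the NAc value there was -0.40.

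Most of the window sum, though not most of the OCRs, behaved as 1 unit across libraries. For each OCR, Pearson's r was taken between its log2 CPM and that of the sum of the other OCRs in the window over the 29 libraries. It was above 0.8 for 18 OCRs, which held 66.3% of the window sum, and below 0 for 14 OCRs. Of the 18, 16 lay within the interval, 1 before it (OCR 3, chr18:79313165-79314137) and 1 directly after it (OCR 36, chr18:79442693-79443026). Of the 14, 7 were the remaining OCRs after the interval. These values are descriptions, since the libraries share regions and animals and were split into these classes by the same values.

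The sum of the 18 OCRs ran from 115 to 678 CPM over the libraries, and that of the 14 OCRs from 23.3 to 63.8 CPM. The library with the highest sum of the 18, DG METH replicate 4, had the lowest sum of the 14. This follows in part from the choice of both classes by r over these same libraries. OCR 24 read 145 CPM in DG METH replicate 1, 142 CPM in DG METH replicate 4 and 133 CPM in CA saline replicate 2, against 19.0 CPM in DG saline replicate 1 and 20.9 CPM in CA saline replicate 4.

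**Figure D2:**
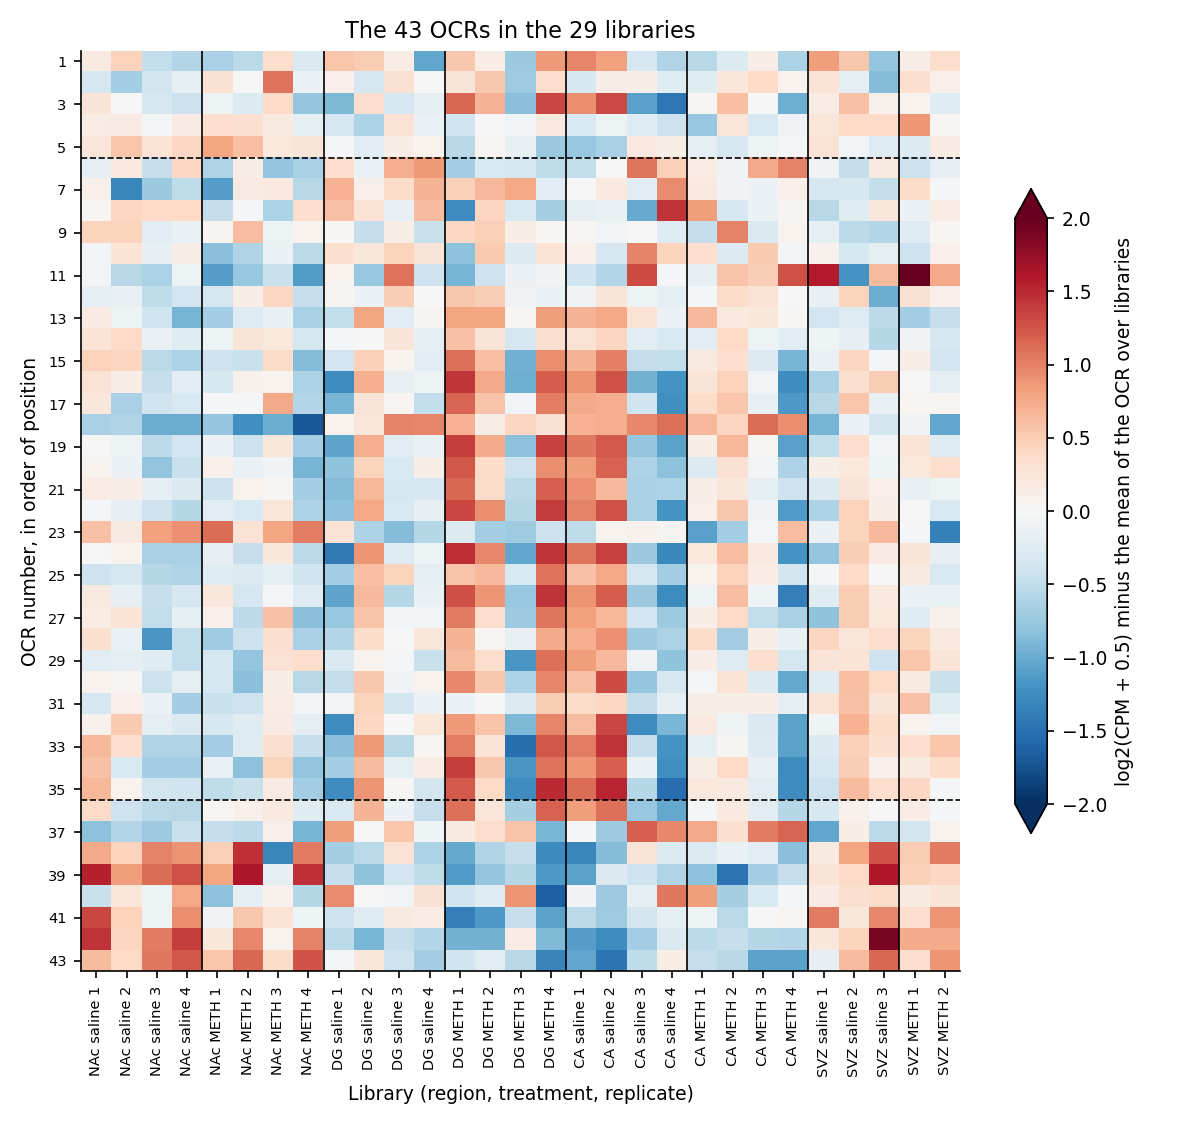
log2(CPM + 0.5) of the 43 OCRs (rows, in order of position, with dashed lines at the ends of the Mbp interval) in the 29 libraries (columns, by region, treatment and replicate), as the difference from the mean of each OCR. Most rows of the interval are high together in DG METH replicates 1, 2 and 4 and CA saline replicates 1 and 2, and the last rows are high in most NAc and SVZ libraries.

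OCRs elsewhere in the genome followed the window more closely than some of its own members did. The 5 OCRs outside the window whose log2 CPM correlated best with the log2 window sum over the 29 libraries were chr3:91460873-91461522 (r = 0.990), chr11:83014413-83015240 (r = 0.989), chr9:43205438-43207118 (r = 0.989), chr7:139275881-139276758 (r = 0.988) and chr3:2650673-2651810 (r = 0.988). Of the 98194 OCRs outside the window, 4082 (4.16%) had an r above 0.9, while the median r was -0.19. The spread between libraries of 1 group was slightly wider in the window than elsewhere, with a median SD of 0.60 on the log2 scale against 0.54 for all OCRs, and 28 of the 43 OCRs lay above the median of all OCRs.

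At the extremes of the window sum the top-decile share moved with it. The 5 libraries with the highest window sums, between 624 and 854 CPM, were all from DG or CA, 4 of them from batch 1, and had top-decile shares between 55.4 and 62.6%. The 5 with the lowest sums, between 267 and 302 CPM, had shares between 45.8 and 52.3%. Of these 5, 4 were also from DG or CA and 1 was from batch 1. Other libraries departed from this. NAc METH replicate 1 had a share of 57.7% at 363 CPM, and SVZ METH replicate 1 had 46.5% at 452 CPM. The part of library concentration in the differences described here was not tested, except by the fits with this share as a covariate given below. In bulk tissue, more oligodendrocytes in a sample and more accessibility per oligodendrocyte cannot be told apart.

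The study asked what an acute METH binge does to open chromatin, so METH was set against saline within each region. In NAc the METH libraries read 363, 373, 461 and 302 CPM, inside or near the saline range of 316 to 467 CPM. Their mean was 375 ± 65.3 CPM (SD, n = 4), and METH minus saline was -9.21 CPM (SE 49.4), less than the spread between libraries (exact permutation test, two-sided, p = 0.857). In SVZ the METH libraries read 452 and 382 CPM, within the saline range of 338 to 514 CPM. The mean was 417 ± 49.3 CPM (SD, n = 2), and METH minus saline was -12.8 CPM (SE 61.8, exact permutation test, two-sided, p = 0.9), where 3 against 2 libraries cannot give a p below 0.1.

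In DG the METH libraries read 854, 624, 274 and 845 CPM, against 271, 596, 399 and 385 CPM with saline. Replicates 1, 2 and 4 of METH lay above all 4 saline libraries, and METH replicate 3 lay at the low end of the saline range. The mean was 649 ± 272 CPM with METH (SD, n = 4) and 413 ± 135 CPM with saline (SD, n = 4), a difference of 237 CPM (SE 152) or 1.57 times. The METH library was the higher one in 13 of 16 pairs of libraries, and the difference did not exceed the spread (exact permutation test, two-sided, p = 0.171, Benjamini-Hochberg adjusted over 4 regions 0.686). Without METH replicate 3 it was 362 CPM (exact permutation test, two-sided, p = 0.0571), the largest value on leaving out 1 library. Without METH replicate 1 it was 168 CPM, the smallest, and without METH replicate 4 it was 171 CPM (exact permutation test, two-sided, p = 0.314 for each). Within batches it was 305 and 168 CPM.

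In CA the METH libraries read 442, 538, 423 and 270 CPM and lay inside the saline range of 267 to 826 CPM. The mean was 418 ± 111 CPM (SD, n = 4), and METH minus saline was -107 CPM (SE 149, exact permutation test, two-sided, p = 0.486, and 0.9 after adjustment). The difference was -271 CPM in batch 1 and 55.7 CPM in batch 2, and it was -7.21 CPM without CA saline replicate 2. In NAc the batches also gave opposite signs, -78.2 and 59.8 CPM, and in SVZ batch 2 alone gave -58.5 CPM, since batch 1 had no METH library of that region.

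**Figure D3:**
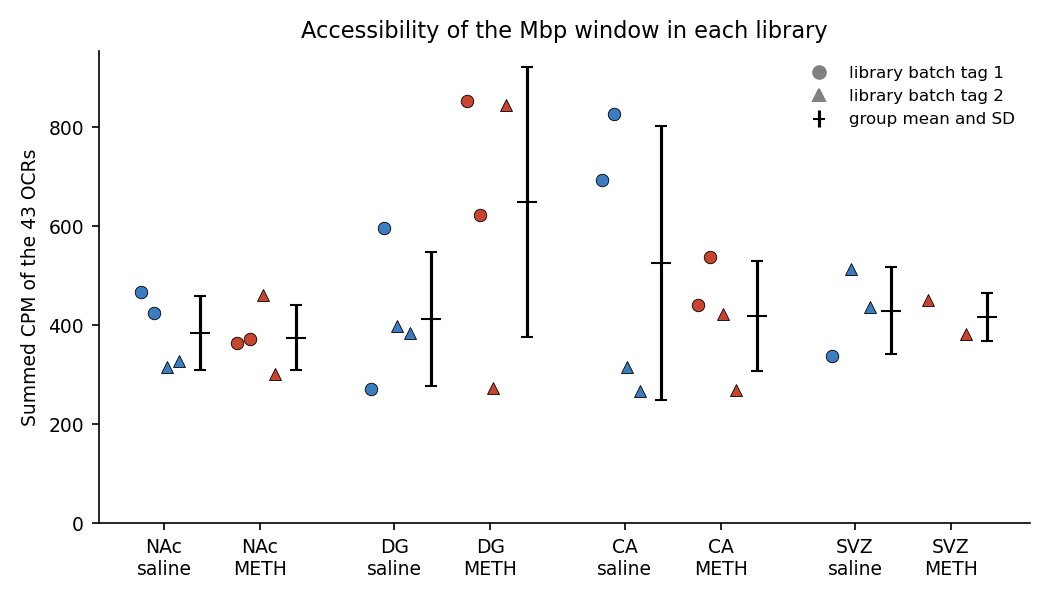
Summed CPM of the 43 OCRs (vertical axis) in each of the 29 libraries, by region and treatment. Points are libraries, circles batch 1 and triangles batch 2, and the bar beside each group is its mean and SD. DG METH spans 274 to 854 CPM and CA saline spans 267 to 826 CPM, while the NAc and SVZ groups stay between 302 and 514 CPM.

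No OCR in the window was called between METH and saline in any region by this fit, which left out the RUVr normalization of the study. With that step the study reported OCRs changed by METH in every brain region, most of them in DG. It listed Mbp among the most connected genes near DG OCRs that gained accessibility and held Sox motifs. To be called here, an OCR had to differ by more than 1.5 times with an FDR under 0.001 in edgeR's quasi-likelihood test of all 29 libraries. The count was 0 of 43 in each region, beside 0% of all 98237 OCRs in each region, and DESeq2 also called 0 of 43 in each, with 14 at an unadjusted p under 0.05 in DG, where 16.1% of all OCRs passed. At an unadjusted p under 0.05 edgeR gave 7 OCRs in DG, where 9.84% of all OCRs passed, and 1 in NAc, where 2.45% did. It gave 0 in CA and 0 in SVZ, where 0.82% and 3.47% did. Higher values with METH at this p were seen in 3.57% of all OCRs in DG, 1.03% in NAc, 0.353% in CA and 1.27% in SVZ. The 1 OCR in NAc was OCR 2 (chr18:79307519-79308014), before the interval, with saline values of 2.43, 1.83, 2.39 and 2.77 CPM and METH values of 4.13, 3.23, 7.39 and 2.95 CPM. It was named for having the lowest p in NAc, and its log2 fold change was 0.90 (SE 0.34, edgeR FDR 1).

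In DG, 5 of the 7 OCRs had higher values with METH. They were OCR 3, OCR 17, OCR 21, OCR 22 and OCR 26, with log2 fold changes of 1.03, 1.06, 0.91, 0.97 and 1.08, all with an edgeR FDR of 0.493. The other 2, OCR 6 and OCR 41, had lower values. OCR 41 (chr18:79486274-79486822) had the lowest p of the window in DG. It read 1.33, 1.55, 2.27 and 2.20 CPM with saline and 0.43, 0.60, 1.28 and 0.67 CPM with METH. All these values lay below 4.52 CPM, the level of the median OCR in the window. The log2 fold change of OCR 41 was -1.30 (SE 0.42, edgeR FDR 0.493). The 7 became 18 without METH replicate 3, where the share of all OCRs became 31.2%. They became 2 without METH replicate 1 and 2 without METH replicate 4, where it became 3.47% and 3.6%. The count in the window thus moved together with the count over all OCRs, and 0 were called in each case.

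The 3 highest OCRs of the window followed the window sum in DG. They hold 31.9% of that sum, so this is no separate result. OCR 24 read 19.0, 95.5, 43.1 and 47.8 CPM with saline and 145, 101, 24.9 and 142 CPM with METH. Its log2 fold change was 1.01 (SE 0.52, edgeR FDR 0.493), and METH replicates 1, 2 and 4 lay above all saline libraries. OCR 16 and OCR 22 had log2 fold changes of 0.90 and 0.97 with METH in DG and of -0.41 and -0.49 in CA. In NAc and SVZ the log2 fold changes of these 3 OCRs lay between -0.23 and 0.09.

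In CA the lowest p belonged to OCR 33 (chr18:79436094-79436474). It read 12.0, 16.3, 4.0 and 2.20 CPM with saline and 4.97, 5.91, 4.59 and 2.43 CPM with METH, and the groups overlapped. The log2 fold change was -0.95 (SE 0.54, edgeR FDR 1). In SVZ it was OCR 23 (chr18:79403185-79403406), which read 1.90, 3.04 and 3.54 CPM with saline and 2.02 and 0.52 CPM with METH, with a log2 fold change of -1.14 (SE 0.60, edgeR FDR 1).

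Across the 43 OCRs the METH differences went both ways in each region. In DG, 29 of 43 OCRs had a log2 fold change above 0, with a median of 0.36 where that of all OCRs was -0.15. In CA, 32 of 43 had one below 0, with a median of -0.27 where that of all OCRs was 0.02. The medians in NAc and SVZ were -0.03 and -0.04, near those of all OCRs at -0.01 in each. The 18 OCRs that moved with the window lay between 0.49 and 1.08 in DG, all above 0, and between -0.95 and -0.11 in CA, all below 0. Of the 14 OCRs that moved against it, 12 were below 0 in DG. These OCRs are not independent of each other, since the same few libraries set their values. The 18 and the 14 were chosen by r over these same libraries. The highest window sums were those of DG METH replicates 1, 2 and 4 and CA saline replicates 1 and 2. The signs of both classes in DG and CA therefore follow largely from that choice and are no separate result.

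**Figure D4:**
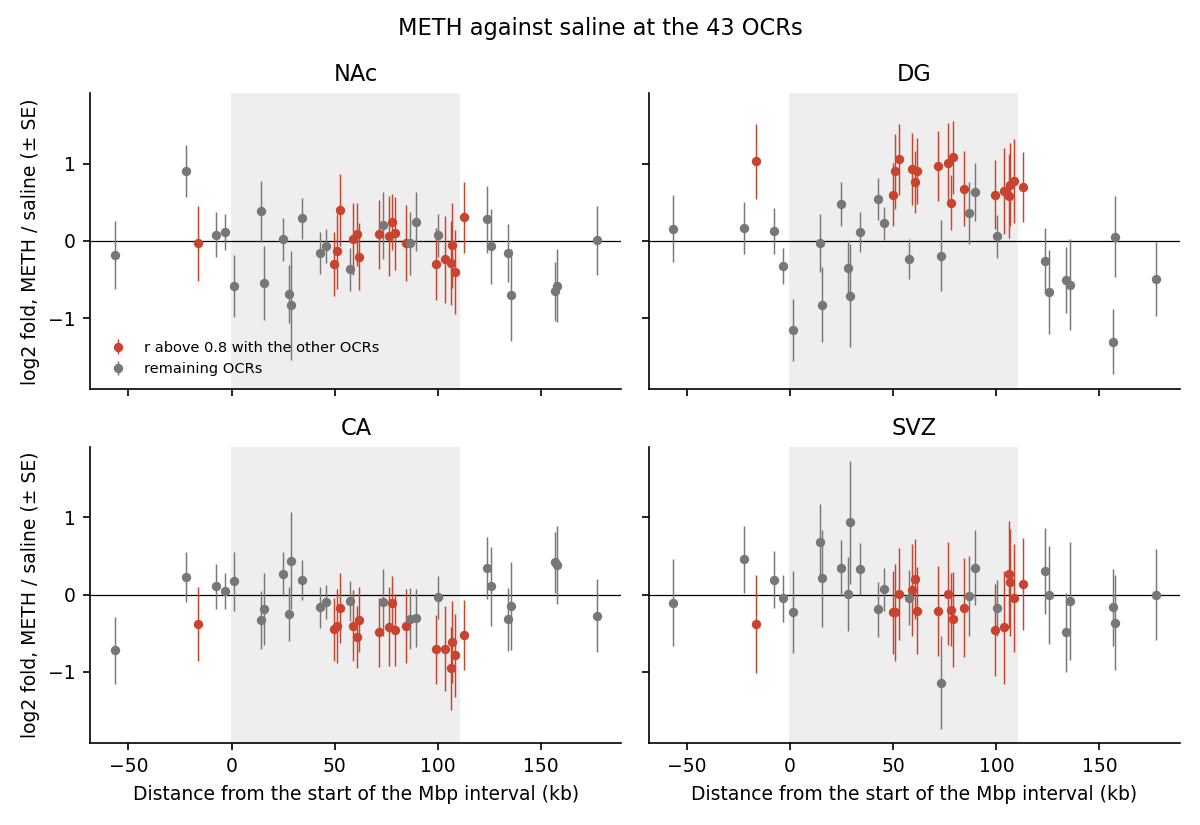
log2 fold change of METH against saline with its SE (vertical axis) for each of the 43 OCRs, against its distance from the start of the Mbp interval in kb (horizontal axis), in 1 panel per region with the interval shaded. Red points are the 18 OCRs with an r above 0.8 with the other OCRs and grey points the remaining ones. The red points lie above 0 in DG, below 0 in CA and around 0 in NAc and SVZ. The red OCRs were chosen by r over these same libraries, so their signs in DG and CA are no separate result.

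The DG values differed between fits. When the top-decile share entered the fit, the median over the 43 OCRs in DG was -0.04, 19 were above 0, and 2 passed an unadjusted p under 0.05, 0 of them higher, beside 5.06% and 0.727% of all OCRs. The median in CA was -0.09 in that fit. The share is not independent of the window or of the treatment, since OCR 24, OCR 16 and OCR 22 each lie above 95.1% or more of all OCRs in mean CPM, and the share was 56.4% with METH and 51.5% with saline in DG on average. With 5 RUVr factors, which are estimated from the residuals of a first fit, 6 OCRs in the window were called higher in DG, where 2.13% of all OCRs were called higher. They were OCR 3, OCR 16, OCR 19, OCR 22, OCR 24 and OCR 26, with log2 fold changes between 0.76 and 0.95. The median with these factors was 0.32. It was 0.43 with TMM library sizes and 0.53 with DESeq2, where the medians of all OCRs were -0.09 and -0.01.

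The DG and CA samples of 1 rat were then set side by side, since the study compares the METH effects of these 2 parts of the hippocampus. The METH effect in DG minus that in CA was 344 CPM (two-sided exact permutation test within each region, p = 0.118), and leaving out 1 library at a time it ran from 244 CPM without CA saline replicate 2 (exact permutation test, two-sided, p = 0.248) to 469 CPM without DG METH replicate 3 (exact permutation test, two-sided, p = 0.0347). The latter was the only 1 of the 16 with a p under 0.05, and it leaves out the METH library with the lowest DG value. In the saline rats, DG minus CA was -424, -230, 83.5 and 119 CPM for animals 1 to 4. In the METH rats it was 412, 85.8, -149 and 575 CPM. The signs within saline rats followed the batch, with both animals of batch 1 below 0 and both of batch 2 above 0, and 3 of the 4 METH rats were above 0.

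The mean of DG minus CA was -113 ± 260 CPM in saline rats (SD, n = 4) and 231 ± 325 CPM in METH rats (SD, n = 4), which differed by 344 CPM (SE 208, exact permutation test, two-sided, p = 0.143). The interaction was 576 CPM in batch 1 and 112 CPM in batch 2. The sum of DG and CA was 938 ± 350 CPM in saline rats and 1067 ± 258 CPM in METH rats (SD, n = 4 each; exact permutation test, two-sided, p = 0.543). The fit by OCR had no term for the animal, so DG and CA of 1 rat were not paired in it. At an unadjusted p under 0.05, 9 of 43 OCRs differed in METH effect between DG and CA, 7 of them higher in DG. Among all OCRs these shares were 8.48% and 3.95%. By the thresholds used for METH 0 were called, as were 0% of all OCRs. With 5 RUVr factors 6 of 43 were called higher in DG, against 1.6% of all OCRs. The median of this difference was 0.60 over the 43 OCRs and -0.20 over all OCRs, and with the top-decile share in the fit it was 0.13 and -0.14.

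**Figure D5:**
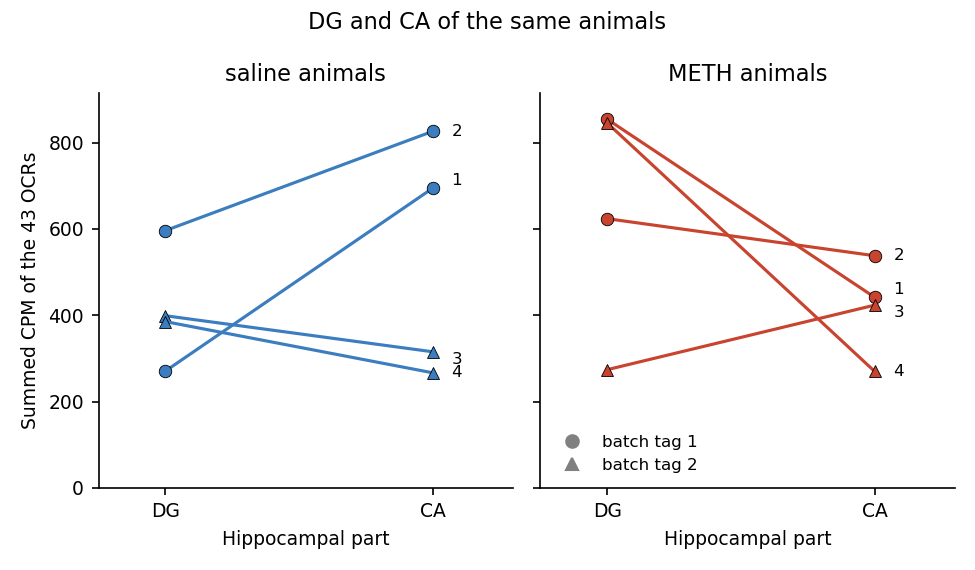
Summed CPM of the 43 OCRs (vertical axis) in the DG and CA of the same animals, saline animals left and METH animals right, with 1 line per animal labelled by its replicate number and circles for batch 1 and triangles for batch 2. Saline animals 1 and 2 rise from DG to CA and animals 3 and 4 drop, while METH animals 1, 2 and 4 drop and animal 3 rises.

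The METH libraries alone were also compared between regions. Here 21 of 43 OCRs passed an unadjusted p under 0.05 in DG, 16 of them higher, beside 28.4 and 13.5% of all OCRs, with a median log2 fold change of 0.43 against -0.01 for all OCRs, and 0 were called. DG minus CA in window sum was 231 CPM in METH libraries (exact permutation test, two-sided, p = 0.171), where it was -113 CPM in saline libraries. NAc minus DG was -274 CPM and SVZ minus DG was -233 CPM in METH libraries (exact permutation test, two-sided, p = 0.143 and 0.4), and DG METH replicate 3, at 274 CPM, lay below all METH libraries of the other regions but CA METH replicate 4.

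The number of called peaks was compared in the same way. The number of peaks per library in the window with saline was, for NAc, 24.8 ± 5.74 (SD, n = 4), for DG 23.3 ± 4.19 (SD, n = 4), for CA 28.5 ± 4.65 (SD, n = 4) and for SVZ 18.7 ± 3.51 (SD, n = 3). In the same order, METH minus saline was -1.5, 1.0, 2.5 and 0.83 peaks (exact permutation test, two-sided, p = 0.657, 0.743, 0.686 and 1.0), differences within the spread between libraries.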

How the data were processed

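The authors processed the ATAC-seq reads with the AIAP package at its defaults, library by library, and built consensus OCRs with mergeBed. The deposited table holds raw counts per OCR, not normalized, for 98237 OCRs in 29 libraries. The authors also deposited a peak list per library, with a fold enrichment as a ratio, −log10 p and q values and a score, which were used here only to count peaks (minimum overlap 1 bp). Not given in the sources used here are the aligner, the counter and the treatment of the transposase offset. Coordinates are rn6, printed with the first base as 1.

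Groups came from the sample titles. Counts were fitted in R 4.3.3 with edgeR 4.0.16 (upper-quartile library sizes, trended dispersion, robust quasi-likelihood F test) over all OCRs. filterByExpr kept 98237 of 98237. METH was compared with saline in 1 model of 8 groups, and regions in the 15 saline libraries, at the thresholds of the study. CPM sums per library were compared by two-sided exact permutation tests. DESeq2 1.42.0, TMM, RUVr with 5 factors (the study gives no number), a top-decile, batch or replicate term, other filters and leaving out each library were alternatives. The fit was tested on simulated counts.

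The OCRs, lists and tests were chosen with earlier results of these data known. OCRs were named by rule: the 3 highest, the lowest METH p and the largest regional fold change in each region, any METH call, and the 5 outside OCRs most like the window. The remaining named OCRs were chosen after their values were seen. Peak names gave 8 animals and 2 forms of a tag, read here as batches though the names do not call them so. Within a treatment equal numbers marked 1 animal in NAc, DG and CA. As a check, each library's deviation from its group mean over all OCRs was correlated with that of other regions of its animal. In 39 such pairs r lay from -0.47 to 0.69 and exceeded 0.1 in 17. The names of the second SVZ METH library hold a further tag, not explained in the sources used here.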

Additional observations from a re-analysis of the deposited data

Results flagged for a closer look

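The named OCRs, the window sum and the number of peaks were searched for a library that stood apart from the others of its group, in 72 groups of 4 libraries, of which chance marks about 1 in 20. There were 2 such values. OCR 23 read 1.32 CPM in CA saline replicate 1, where the other 3 libraries of the group read 2.20 to 2.25 CPM. OCR 42 read 1.67 CPM in DG METH replicate 3, where the other 3 read 0.516 to 0.572 CPM. DG METH replicate 3 was also the library with the low window sum in its group. Their causes were not tested.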

How the results depend on the processing

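With METH libraries in place of saline libraries, DG minus CA was 231 CPM and SVZ minus DG was -233 CPM. CPM from total OCR counts gave 7.43 CPM for METH minus saline in SVZ. Batch 2 alone gave 59.8 CPM in NAc and 55.7 CPM in CA for METH minus saline, 31.1 CPM for NAc minus CA, 101 CPM for DG minus CA and 184 CPM for SVZ minus CA in saline libraries, and batch 1 alone gave 12.9 CPM for NAc minus DG, 108 CPM for NAc minus SVZ and -95.5 CPM for SVZ minus DG, the within-batch region pairs having been added after seeing the data. RUVr called 6 OCRs in DG METH, where 2.13% of all OCRs were called higher. Between regions DESeq2 called 1 in DG (OCR 39, lower), where 3% of all OCRs were called lower. In CA it called 2, OCR 18 higher and OCR 42 lower, against 1.35% and 3.37% of all OCRs. TMM called 0 in CA, where 0.00407% of all OCRs were called higher. The causes were not tested.

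Leaving out 1 library at a time gave METH minus saline between -37.9 and 18.5 CPM in NAc, 168 and 362 in DG, -194 and -7.21 in CA, and -58.5 and 29.7 in SVZ. It gave NAc minus DG between -75.9 and 32.6 CPM, NAc minus CA between -228 and -41.2, NAc minus SVZ between -91.0 and -2.83, DG minus CA between -199 and -12.7, SVZ minus DG between -30.6 and 77.9, SVZ minus CA between -182 and 4.06, and the DG minus CA effect between 244 and 469 CPM. OCRs called between regions numbered 0 to 3 in NAc and 0 to 1 in CA, and 0 in DG and SVZ, and those called with METH numbered 0 in every region.

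The replicate block, which pairs METH and saline libraries that share only a number, gave METH minus saline of -9.21 CPM (NAc, exact p = 0.875), 237 CPM (DG, exact p = 0.375), -107 CPM (CA, exact p = 0.5) and -9.49 CPM (SVZ, exact p = 1.0), where 4 pairs cannot give a p below 0.125, and it called 0 OCRs. Deviations of such pairs correlated with r between -0.26 and 0.73, and 3 of 14 correlated best with their own number. The block by animal gave -28.5 CPM for NAc minus DG, -141 for NAc minus CA, -59.1 for NAc minus SVZ, -113 for DG minus CA, 77.9 for SVZ minus DG and 4.06 for SVZ minus CA, and added OCR 42 to the NAc calls, to make 3. It changed no other call.

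At single OCRs, adding the top-decile share gave METH log2 fold changes of 0.13 for OCR 16 in SVZ, -0.11 for OCR 22 in NAc, 0.18 for OCR 22 in SVZ and -0.11 for OCR 24 in NAc, and the replicate block gave -0.14 for OCR 24 in SVZ. With the block by animal the regional value in SVZ was 0.35 for OCR 22 and 0.39 for OCR 24. In METH libraries the regional values were 0.95 in DG, -0.22 in CA and -0.31 in SVZ for OCR 16, 1.09 in DG and -0.23 in CA for OCR 22, and 1.02 in DG and -0.19 in CA for OCR 24. Leaving out 1 library, the METH values of OCR 16 ran from -0.70 to 0.078 in CA and from -0.51 to 0.0033 in SVZ, those of OCR 22 from -0.094 to 0.21 in NAc and from -0.46 to 0.058 in SVZ, and those of OCR 24 from -0.11 to 0.20 in NAc, from -0.72 to 0.044 in CA and from -0.27 to 0.30 in SVZ. The regional values of OCR 16 ran from -0.58 to 0.045 in DG, from -0.12 to 0.66 in CA and from -0.19 to 0.32 in SVZ, those of OCR 22 from -0.49 to 0.11 in DG and from -0.27 to 0.25 in SVZ, and those of OCR 24 from -0.59 to 0.17 in DG and from -0.32 to 0.26 in SVZ.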
